A study of Mus musculus with 151 samples.

Results

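The receptors through which the ovary answers pituitary gonadotropins and sex steroids were followed as 8 genes: Fshr, Lhcgr, Esr1, Esr2, Pgr, Gper1, Nr5a1 and Nr5a2. They were chosen by name, with earlier results of these data known. All 8 were found in each of the 7 deposited tables, among 35976 gene names per table. The mice were offspring of CF-1 females and B6/SJL males. Natural offspring came from mating in a natural cycle without embryo transfer. IVF offspring came from CF-1 females superovulated with eCG and hCG, and the embryos were grown to blastocysts in KSOM+AA medium at 5% oxygen and transferred into CF-1 recipients, so superovulation, fertilisation in vitro, culture and transfer cannot be told apart. Both groups were delivered by caesarean section, and adult cohorts were raised by foster mothers. Ovaries, 1 per animal, were sequenced from 4 Natural and 6 IVF fetuses at E18.5, from 4 Natural and 5 IVF females at 12 weeks, and from 5 Natural and 5 IVF females at 39 weeks. The paper calls them whole ovaries, while its methods take RNA from a portion of each snap-frozen ovary or from a whole E18.5 gonad. Sources on the study give both E18.5 and E19.5 as the day of collection of IVF fetuses, so fetal age and conception cannot be told apart at that stage, and 1 Natural ovary of the 39-week group is given as 40 weeks in another field of its label. Low-input libraries, made from small pools of cells or from single oocytes, held primordial germ cells (PGCs) of E13.5 gonads, single oocytes of 12- and 39-week females, and cumulus cells of 12-week females, with the adult females superovulated before the oocytes and cumulus cells were collected. The study's methods place the females used for serum hormones at proestrus, and whether these females gave the sequenced ovaries is not given in the sources used here.

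Follicle-stimulating hormone (FSH) acts on granulosa cells through Fshr, and luteinizing hormone (LH) acts on theca cells, mature granulosa cells and luteal cells through Lhcgr. Both are Gs-coupled receptors that raise cyclic AMP, and they drive follicle growth, estrogen synthesis, ovulation and the corpus luteum. Estrogen acts through the nuclear receptors Esr1, prominent in theca, stroma and the reproductive tract, and Esr2, prominent in granulosa cells, while Gper1 is a membrane receptor proposed to bind estrogen. Pgr, the progesterone receptor, is switched on in granulosa cells by the LH surge and is needed for follicle rupture. Nr5a1 (SF-1) and Nr5a2 (LRH-1) are nuclear receptors of the NR5A family that bind promoters of steroid-synthesis genes, and Nr5a2 in granulosa cells is required for ovulation.

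Values are CPM, counts scaled to the size of the library after TMM normalization within each table. The 7 tables were scaled separately, so levels set side by side across tables carry no test. Library totals were 6995713 to 14830788 counts in E18.5 ovaries, 2839022 to 43363799 at 12 weeks and 18079970 to 38751638 at 39 weeks. The lowest adult total was that of 12-week IVF replicate 4. Cumulus libraries held 2532824 to 6345249 and PGC libraries 4364495 to 8675189 counts. The ovary label fitted its markers: Foxl2, a transcription factor of granulosa cells, lay between 110 and 350 CPM in all ovaries. In the cumulus libraries Foxl2 lay at 0.966 to 5.95 CPM, while Inhba, an inhibin and activin subunit of granulosa cells, lay at 126 to 254 CPM. Marker sums of immune cells ran from 92.0 to 4653 CPM over the cumulus libraries. Ovgp1, the oviductal glycoprotein, lay at 2747 to 6308 CPM in Natural and 2.35 to 2588 CPM in IVF ovaries at 12 weeks. It reached 6663 CPM in a 39-week IVF ovary. In bulk samples, fewer cells of a type and less RNA per cell cannot be told apart.

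The gonadotropin receptor genes are neighbours on mouse chromosome 17 (GRCm38), both on the minus strand, with Fshr at chr17:88984952-89200675 and Lhcgr at chr17:88716481-88791990. Lhcgr was the only receptor that edgeR called between Natural and IVF ovaries in the fits with no covariate and no block, and Fshr and Lhcgr varied together over adult ovaries, so the 250 bases before the annotated start of each are shown, from RefSeq on GRCm38.p6, read 5′ to 3′ on the minus strand. Lhcgr covers chr17:88792015-88792264 with the GC box GGGCGG in capitals, and Fshr covers chr17:89200676-89200925 with the E-box CACGTG in capitals. The RefSeq start of Lhcgr lies upstream of the GENCODE span given above, so its window does not adjoin that span, while the Fshr window does.
Lhcgr: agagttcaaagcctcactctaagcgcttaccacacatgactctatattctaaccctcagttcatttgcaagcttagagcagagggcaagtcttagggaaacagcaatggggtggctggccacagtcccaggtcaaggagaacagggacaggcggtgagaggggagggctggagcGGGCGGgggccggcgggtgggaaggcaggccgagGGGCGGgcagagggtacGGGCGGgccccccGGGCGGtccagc
Fshr: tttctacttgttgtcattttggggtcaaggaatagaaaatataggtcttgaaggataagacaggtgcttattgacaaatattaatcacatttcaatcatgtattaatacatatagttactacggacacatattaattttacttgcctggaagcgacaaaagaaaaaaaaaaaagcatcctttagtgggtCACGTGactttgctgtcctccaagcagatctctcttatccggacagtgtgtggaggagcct
The reference is the C57BL/6J genome, not that of the CF-1 mothers. The same span, the 250 bases before a start, was searched on both strands in 32851 RefSeq promoters. Of these, 32.7% hold GGGCGG at least once and 4.09% at least 4 times, as Lhcgr does. CACGTG occurs in 6.02%. RefSeq entries were matched for 7 of the 8 receptors, all but Nr5a1, and Pgr held 1 GGGCGG and Esr2 1 CACGTG. None of the 7 genes held TCAAGGTCA, a form of the NR5A motif (0.387% of promoters), and other forms of it were not searched. Nor did any hold the palindromic estrogen response element, GGTCA and TGACC set apart by 3 bases (0.0639%). This says only that these letters were not in these windows.

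The steroid receptor genes lie on other chromosomes: Esr1 at chr10:4611593-5005614 on the plus strand, Esr2 at chr12:76120419-76177259 on the minus strand, Pgr at chr9:8899833-8968611 on the plus strand and Gper1 at chr5:139423151-139427800 on the plus strand. Nr5a1 lies at chr2:38692656-38714542 and Nr5a2 at chr1:136842571-136960448, both on the minus strand. No receptor shared exon bases with another annotated gene in GENCODE vM21, although the antisense gene Nr5a1os overlaps the Nr5a1 locus. The processed pseudogene Gm7862 overlaps the Esr2 locus on the same strand, and the protein-coding gene 3110082I17Rik overlaps the Gper1 locus on the other strand. Ovgp1 shares 1023 exon bases with Gm42890.

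The receptors differed in level and in where they peaked. Per kilobase of exon, Esr1 (14.3 CPM per kb) and Nr5a1 (13.4) led in E18.5 ovaries, while Lhcgr (0.198) and Fshr (0.0527) were lowest. In 12-week ovaries Nr5a1 (58.7 CPM per kb) and Nr5a2 (49.1) led, followed by Esr2 (19.7), Esr1 (10.7), Lhcgr (9.77), Fshr (6.96), Pgr (1.81) and Gper1 (0.695). In 39-week ovaries Nr5a1 (75.2) and Nr5a2 (47.5) again led and Lhcgr (32.8) came next. The NR5A pair also led in cumulus cells, with Nr5a1 at 15.6 and Nr5a2 at 4.66 CPM per kb, ahead of Fshr at 2.95 and Esr2 at 2.18. In PGCs Nr5a2 (2.70) was first and Fshr and Lhcgr had no count in any of the 9 libraries. Single 12-week oocytes, summed over sets that share the leading fields of their library names, had Esr2 first (37.0 CPM per kb), then Esr1 (3.58) and Nr5a2 (1.79).

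**Figure D1:**
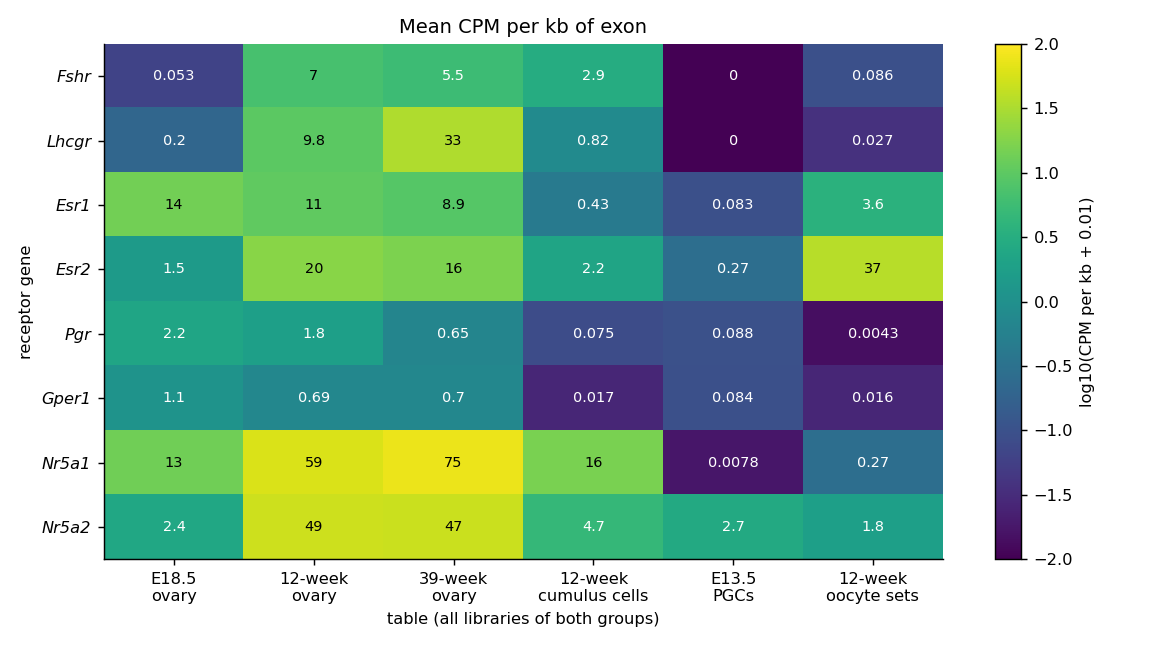
Mean CPM per kilobase of exon for each of the 8 receptors (rows) in each kind of sample (columns), drawn as a heatmap with a log10 color scale (0.01 added). Nr5a1 and Nr5a2 lead in adult ovaries and cumulus cells, Esr1 in E18.5 ovaries, Nr5a2 in PGCs and Esr2 in oocyte sets. Tables were scaled separately.

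Set side by side over the kinds of sample, in mean CPM, Esr1 stood at 195 in E18.5 ovaries, 147 in 12-week and 122 in 39-week ovaries, 48.9 in oocyte sets, 5.90 in cumulus cells and 1.14 in PGCs. The ranges of the 3 ovary ages overlapped, those of 39-week ovaries and oocyte sets did not, nor did those of oocyte sets and cumulus cells. Esr2 ran in another order, with 125 CPM in oocyte sets, 66.5 in 12-week ovaries, 53.9 in 39-week ovaries, 7.35 in cumulus cells and 4.98 in E18.5 ovaries. Its ranges overlapped among the first 3 and separated between 39-week ovaries and cumulus cells. Nr5a1 ran in the order 319 CPM in 39-week ovaries, 249 in 12-week ovaries, 66.0 in cumulus cells and 56.9 in E18.5 ovaries. Adult ovaries lay above cumulus cells without overlap, and cumulus cells overlapped E18.5 ovaries. Nr5a2 stood at 290 and 280 CPM in 12- and 39-week ovaries, whose ranges overlapped, and at 27.5 CPM in cumulus cells, below both. Lhcgr stood at 251 CPM in 39-week ovaries, 74.7 in 12-week ovaries, 6.26 in cumulus cells and 1.51 in E18.5 ovaries, and each neighbouring pair of ranges overlapped. Fshr stood at 16.4, 13.0 and 6.96 CPM in 12-week ovaries, 39-week ovaries and cumulus cells, with overlap, and at 0.124 CPM in E18.5 ovaries. Pgr stood at 19.0, 15.5 and 5.53 CPM in E18.5, 12-week and 39-week ovaries, with overlap, and Gper1 at 2.86, 1.76 and 1.77 CPM in the same tissues.

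**Figure D2:**
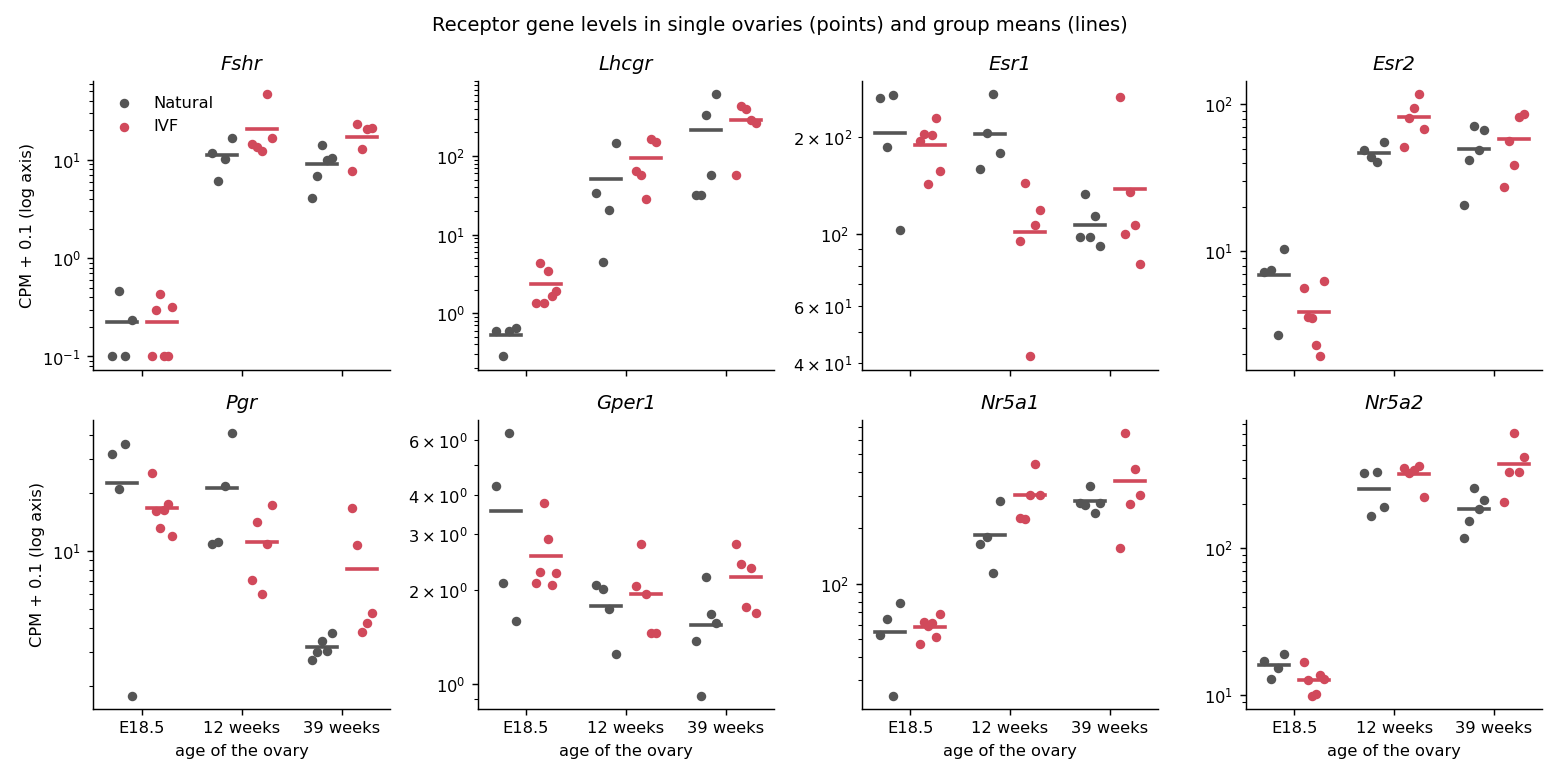
CPM of each receptor in every ovary on a log axis (0.1 CPM added so that values of 0 can be drawn), by age and by group, with a line at each group mean. At E18.5 every IVF ovary lies above every Natural ovary for Lhcgr. At 12 weeks every IVF ovary lies below every Natural ovary for Esr1, and at 39 weeks every IVF ovary lies above every Natural ovary for Pgr.

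In fetal ovaries Lhcgr, the LH receptor, rose in IVF from a level of a few reads per library. The Natural ovaries had 0.499, 0.181, 0.499 and 0.541 CPM, from 6, 2, 5 and 8 counts. The 6 IVF ovaries had 1.25, 4.24, 1.25, 3.30, 1.54 and 1.83 CPM, from 15, 43, 15, 33, 11 and 17 counts. No IVF ovary overlapped a Natural one, and IVF replicates 2 and 4 were the highest. The means were 0.430 ± 0.167 (SD, n = 4) and 2.24 ± 1.24 (SD, n = 6), and edgeR's quasi-likelihood test with Benjamini-Hochberg adjustment over 16415 genes gave a log2 fold change of 2.33 with an SE of 0.51 and an adjusted p of 0.0241. Of all genes tested, 2.67% were called higher in IVF, and 4.29% were higher with no overlap. Lhcgr was the 1 receptor called out of 7 tested, and it passed the expression filter through its IVF libraries, but without that filter its adjusted p was 0.0252. The call was lost without Natural replicate 2 (adjusted p = 0.0705), Natural replicate 4 (0.0540), IVF replicate 2 (0.050) or IVF replicate 4 (0.0519), and the log2 fold change then ran from 2.05 to 2.47.

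Fshr was close to absent from the same ovaries, with 0 to 4 counts per library, and was not tested. Among genes of theca cells and LH-dependent steroid synthesis, 2 of 7 tested rose and none fell, beside 2.67% of all genes tested called higher. Star, which carries cholesterol into mitochondria, rose by a log2 fold change of 0.72 (adjusted p = 0.0420), and Cyp17a1, an androgen-synthesis enzyme of theca cells, by 1.28 (adjusted p = 0.045). Both calls were lost without the expression filter, at adjusted p values of 0.0803 and 0.122. Cyp17a1 lay at 0.598 to 0.947 CPM in Natural and 1.51 to 2.26 CPM in IVF, and it passed that filter through its IVF libraries. Leaving out 1 ovary at a time, Star kept its call only without Natural replicate 1 and Cyp17a1 only without Natural replicate 1 or IVF replicate 3, with adjusted p values up to 0.0948 and 0.129. The median of that list was 0.03, beside 0.000215 over all genes tested. Markers of the mesonephros and the fetal adrenal, both of which lie beside the gonad, summed to 16.2 to 42.1 CPM in Natural and 17.0 to 45.2 CPM in IVF. Of the 6 listed, 3 were tested and 0 called, and the adrenal enzyme Cyp11b2 alone was at 0 in every ovary. Oocyte markers moved with the comparison: 4 of 8 fell, beside 2.75% of all genes tested, including Gdf9 (log2 fold change -2.14, lost without Natural replicate 2 or 4 or IVF replicate 4 or 6, adjusted p up to 0.0821), and their sum ran from 144 to 475 CPM in Natural and from 8.27 to 123 CPM in IVF. Smooth muscle markers also moved, with 5 of 8 lower, including Acta2 (log2 fold change -1.10), and summed to 586 to 832 CPM in Natural and 355 to 464 CPM in IVF. Oviduct and epithelium markers summed to 857 to 1827 CPM in Natural and 698 to 1127 CPM in IVF. Of 16 tested, 3 had positive log2 fold changes (median -0.52), and 1, Msln, was called lower, beside 2.75% of all genes tested. The part of these lists in the Lhcgr difference was not tested.

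None of the steroid receptors passed the test at E18.5, where 5.43% of all genes did in either direction, and 1 of 4 had an unadjusted p below 0.05, beside 24.1% of all genes. DESeq2 called none of them either. Esr1 had 263, 186, 270 and 103 CPM in Natural ovaries, and in the 6 IVF ovaries its lowest, median and highest values were 143, 198 and 228 CPM. The IVF values lay inside the Natural range, and the log2 fold change was -0.13 with an SE of 0.22. Esr2 had 7.08, 7.35, 2.59 and 10.3 CPM in Natural and a lowest, median and highest value of 1.82, 3.43 and 6.13 CPM in IVF. The groups overlapped through Natural replicate 3, and the log2 fold change of -0.86 had an SE of 0.40 and an adjusted p of 0.205. Pgr had 31.9, 20.9, 35.7 and 1.69 CPM in Natural and between 11.8 and 25.2 CPM in IVF. Natural replicate 4 lay below every IVF ovary while the other Natural ovaries lay in or above the upper IVF range. This replicate was also the lowest for Esr1, Gper1 (1.49 CPM) and Ovgp1, and the highest for Esr2, Nr5a1 (78.2 CPM) and Nr5a2 (18.9 CPM). With it the Pgr log2 fold change was -0.43 (adjusted p = 0.643), and without it -0.83 (adjusted p = 0.0733).

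The NR5A genes were expressed in every fetal ovary. Nr5a1 had 52.6, 64.3, 24.7 and 78.2 CPM in Natural and between 47.0 and 68.4 CPM in IVF, inside the Natural range, with a log2 fold change of 0.08 and a 95% interval from -0.43 to 0.59. Nr5a2 had 17.1, 12.8, 15.2 and 18.9 CPM in Natural and between 9.82 and 16.7 CPM in IVF, with a log2 fold change of -0.34 and an adjusted p of 0.269. No gene was called among 14 other steroid and pituitary hormone receptors (median 0.02), 18 Gs and cyclic AMP signalling genes (median 0.02), 8 FSH-induced granulosa genes (median 0.10) and 7 progesterone receptor-dependent ovulatory genes (median -0.23). Of 14 nuclear receptor coregulators tested, 14 had positive log2 fold changes (median 0.37) and 1 was called higher, beside 2.67% of all genes tested. The 15 genes of that list summed to 1529 to 1903 CPM in Natural and 2085 to 2317 CPM in IVF.

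**Figure D3:**
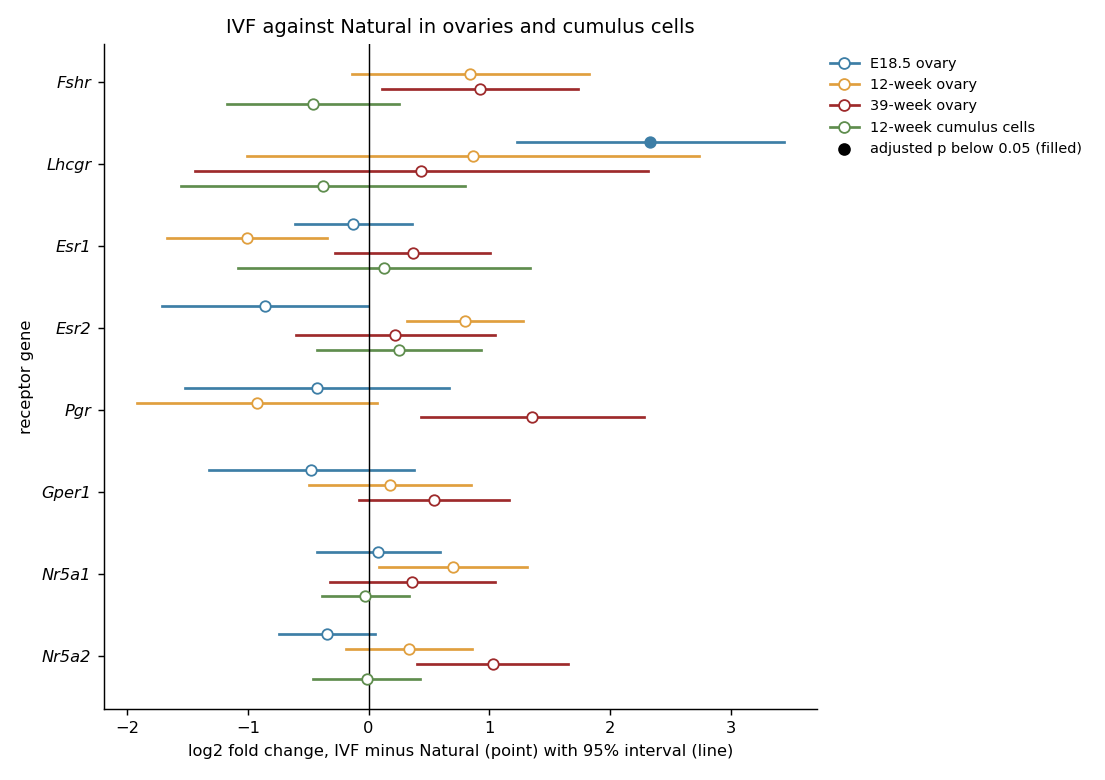
Log2 fold change of IVF against Natural for each receptor in ovaries of 3 ages and in cumulus cells, with 95% intervals from edgeR. The filled point marks an adjusted p below 0.05, which is Lhcgr at E18.5 (log2 fold change 2.33, interval 1.23 to 3.44).

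At 12 weeks the pair of nuclear estrogen receptors stood on opposite sides: Esr1 was lower and Esr2 higher in IVF ovaries, with unadjusted p values below 0.05 but no call after adjustment. Esr1 had 158, 206, 270 and 179 CPM in Natural and 95.3, 143, 41.8, 107 and 119 CPM in IVF. The groups did not overlap, as in 3.64% of all genes tested with IVF lower, and IVF replicate 3 was the lowest. The log2 fold change was -1.01 with an SE of 0.30 (edgeR, p = 0.00694, adjusted p = 0.202), and DESeq2 gave an adjusted p of 0.0329. Esr2 had 48.6, 43.6, 40.3 and 55.0 CPM in Natural and 50.9, 80.3, 94.2, 117 and 68.1 CPM in IVF. IVF replicate 1 lay inside the Natural range and the others above it. The log2 fold change was 0.80 with an SE of 0.22 (edgeR, p = 0.00399, adjusted p = 0.177), and DESeq2 gave an adjusted p of 0.0296. edgeR called 0 of 8 receptors, beside 0.00567% of all genes tested, 3 had an unadjusted p below 0.05, beside 14.4% of all genes, and DESeq2 called 2. Over all genes DESeq2 called 152 higher and 483 lower, and edgeR 1 lower.

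The other steroid receptors overlapped between the 12-week groups. Pgr had 10.8, 11.0, 21.6 and 40.6 CPM in Natural and 6.99, 14.1, 5.93, 10.8 and 17.3 CPM in IVF. Natural replicates 3 and 4 lay above every IVF ovary, and Natural replicates 1 and 2 lay inside the IVF range. Pgr had a log2 fold change of -0.92 (adjusted p = 0.374), and of -0.43 without Natural replicate 4. Gper1 lay between 1.15 and 2.69 CPM in all 9 ovaries, with a log2 fold change of 0.18 and a 95% interval from -0.49 to 0.85.

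The gonadotropin receptors varied widely between 12-week ovaries of the same group. Lhcgr had 34.1, 4.39, 20.2 and 145 CPM in Natural and 64.4, 57.7, 28.1, 167 and 152 CPM in IVF. Natural replicate 4 lay close to the highest IVF ovaries, and the log2 fold change of 0.86 had a 95% interval from -1.01 to 2.74 (adjusted p = 0.659). Leaving out 1 ovary moved it from 0.45, without Natural replicate 2, to 2.20, without Natural replicate 4 (edgeR, adjusted p = 0.250). Fshr had 11.8, 5.95, 10.0 and 16.7 CPM in Natural and 14.3, 13.3, 12.4, 46.7 and 16.7 CPM in IVF. One IVF ovary, replicate 4, the library of 2839022 counts, stood apart, and the log2 fold change of 0.84 (adjusted p = 0.406) became 0.34 without it. Of 9 FSH-induced granulosa genes 8 had positive log2 fold changes, but none passed the test, and their median was 0.57 beside 0.00886 over all genes tested. Within that list Inhba had a log2 fold change of 1.61 (adjusted p = 0.232), Fst, which binds activin, 0.57 and Cyp19a1, the aromatase, 0.30. Inhba and Fst are named because they were among the genes most like a receptor over these same adult ovaries. Cyp19a1 was chosen after its values were seen. The values of these genes are therefore no separate evidence on the receptors.

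Both NR5A genes had positive log2 fold changes at 12 weeks without a call. Nr5a1 had 165, 179, 114 and 280 CPM in Natural and 226, 225, 303, 445 and 303 CPM in IVF. Natural replicate 4 lay among the IVF ovaries, and the log2 fold change of 0.70 had an SE of 0.27 (adjusted p = 0.292). Nr5a2 had 326, 165, 331 and 189 CPM in Natural and 353, 323, 338, 360 and 222 CPM in IVF, which overlapped, with a log2 fold change of 0.34 (adjusted p = 0.521). No gene passed the test among theca and LH-dependent steroidogenic genes (8 tested, median 0.21), progesterone receptor-dependent genes (6 tested, median -0.50), coregulators (15 tested, median 0.15), Gs and cyclic AMP genes (18 tested, median 0.04) or other hormone receptors (14 tested, median 0.03). Oviduct and epithelium markers summed to 4164 to 8794 CPM in Natural and 181 to 3533 CPM in IVF ovaries at this age. All 19 had negative log2 fold changes (median -1.50), and none was called.

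At 39 weeks Pgr and Nr5a2 had the lowest p values, both with higher values in IVF, and neither passed adjustment in edgeR. Pgr had 2.65, 2.91, 3.34, 2.93 and 3.67 CPM in Natural and 16.6, 10.6, 3.70, 4.15 and 4.68 CPM in IVF. The groups did not overlap, as in 2.27% of all genes tested with IVF higher, but IVF replicate 3 lay just above the highest Natural ovary and IVF replicates 1 and 2 far above. The log2 fold change was 1.36 with an SE of 0.42 (edgeR, p = 0.00808, adjusted p = 0.141), it became 0.90 without IVF replicate 1 (adjusted p = 0.148), and DESeq2 gave an adjusted p of 0.0235. Nr5a2 had 117, 153, 255, 183 and 213 CPM in Natural and 206, 328, 603, 330 and 413 CPM in IVF. Only IVF replicate 1 lay within the Natural range. The log2 fold change was 1.03 with an SE of 0.28 (edgeR, p = 0.00419, adjusted p = 0.114), DESeq2 gave an adjusted p of 0.0111, and with log2 CPM of Ovgp1 as a covariate edgeR gave 1.16 and an adjusted p of 0.040. Over all 17186 genes tested, that covariate fit called 162 higher and 214 lower, where the fit without it called 10 and 35. Without the covariate edgeR called 0 of 8 receptors, beside 0.262% of all genes tested. Of the 8, 3 had an unadjusted p below 0.05, beside 19.2% of all genes, and DESeq2 called 2.

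Fshr was the third of these, with 4.02, 6.70, 14.1, 9.89 and 10.3 CPM in Natural and 7.65, 22.9, 12.9, 20.5 and 21.2 CPM in IVF. IVF replicates 2, 4 and 5 lay above every Natural ovary. The log2 fold change was 0.92 with an SE of 0.37 (adjusted p = 0.220), and with Ovgp1 as a covariate it was 1.10 (adjusted p = 0.0462). Lhcgr had 31.5, 32.1, 331, 57.4 and 613 CPM in Natural and 56.8, 437, 402, 286 and 260 CPM in IVF. Its highest value was a Natural ovary, and the log2 fold change of 0.44 had a 95% interval from -1.44 to 2.31. Leaving out 1 ovary moved it from 0.16, without Natural replicate 1, to 1.35, without Natural replicate 5. Of the 9 FSH-induced granulosa genes 8 had positive log2 fold changes (median 0.96, beside 0.0274 over all genes tested) and none was called, with Fst at 1.34 (adjusted p = 0.0916), Inhba at 1.64 and Cyp19a1 at 1.89. Cyp19a1 had a lowest, median and highest value of 2.44, 8.53 and 15.1 CPM in Natural and 3.99, 8.31 and 93.9 CPM in IVF.

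The remaining receptors overlapped between the 39-week groups. Esr1 had 97.8, 133, 97.6, 114 and 91.7 CPM in Natural and 266, 99.8, 135, 107 and 81.0 CPM in IVF. IVF replicate 1 stood apart, and the log2 fold change of 0.36 became -0.02 without it. Esr2 had 20.4, 41.4, 71.1, 49.1 and 66.9 CPM in Natural and 27.4, 56.7, 38.9, 81.5 and 85.5 CPM in IVF, with a log2 fold change of 0.22 and a 95% interval from -0.60 to 1.05. Nr5a1 lay between 240 and 338 CPM in Natural and between 155 and 651 CPM in IVF, a wider range on both sides, with a log2 fold change of 0.36. Gper1 lay between 0.819 and 2.09 CPM in Natural and between 1.58 and 2.70 CPM in IVF, with a log2 fold change of 0.54 (adjusted p = 0.313). Theca and LH-dependent steroidogenic genes had a median of -0.36 with 2 of 8 positive and none called. No gene was called among progesterone receptor-dependent genes (median 0.45), coregulators (0.08), Gs and cyclic AMP genes (-0.04) or other hormone receptors (-0.02). Oviduct and epithelium markers summed to 111 to 392 CPM in Natural and 179 to 10617 CPM in IVF, the highest being replicate 1. The 39-week differences of Pgr and Nr5a2 without that ovary were 0.90 and 1.18.

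Whether the difference between IVF and Natural itself differed between 12 and 39 weeks was tested in 1 model over the 19 adult ovaries. Pgr, whose mean was lower in IVF at 12 weeks and higher at 39, gave the largest interaction, a log2 value of 2.28 with an SE of 0.64 (edgeR, p = 0.00232, adjusted p = 0.0997). Esr1 gave 1.37 with an SE of 0.44 (adjusted p = 0.123). edgeR called 0 of 8 receptors, beside 0.0157% of all genes tested. These 2 were the receptors with an unadjusted p below 0.05, beside 20.1% of all genes, and DESeq2 called both (adjusted p 0.0144 for Pgr and 0.0396 for Esr1). Without 39-week IVF replicate 1 the values were 1.84 for Pgr and 1.00 for Esr1. The other receptors lay between -0.58 (Esr2) and 0.70 (Nr5a2).

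The relation of the receptors to Ovgp1, a product of oviduct epithelium, was examined within each adult age, since ovaries differed widely in this transcript. At 12 weeks Ovgp1 was 5410, 2747, 6308 and 2766 CPM in Natural and 2412, 2588, 2.35, 608 and 287 CPM in IVF. Every IVF ovary lay below every Natural ovary. Esr1 varied with it, with Pearson's r of 0.88 (exact permutation test over 9 ovaries, two-sided, p = 0.00426, adjusted p = 0.12) and Spearman's rho of 0.87 (exact permutation, p = 0.00451, adjusted p = 0.0934). Without IVF replicates 3 and 5, the ovaries farthest from the median of Ovgp1, r was 0.67 (exact permutation, p = 0.0929), so the relation rested in part on them. In deviations from each group's mean r was 0.84 (exact permutation within groups, p = 0.0760).

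Esr2 went the other way, with r = -0.63 (exact permutation, p = 0.0503, adjusted p = 0.315) and rho = -0.78 (exact permutation, p = 0.0172, adjusted p = 0.171), and r was -0.86 without those 2 ovaries and -0.39 in deviations from the group means. Nr5a1 had r = -0.54 (exact permutation, p = 0.15) and rho = -0.83 (exact permutation, p = 0.00827, adjusted p = 0.124), and r was -0.93 without the 2 ovaries and -0.28 in deviations from the group means. Pgr had r = 0.49 and rho = 0.57 (exact permutation, p = 0.196 and 0.121). The other receptors had r between -0.17 and 0.08. None of the 8 receptors passed an adjusted p of 0.05 over 17627 genes, of which 1.5% did, and Esr1 was the receptor with an unadjusted p of r below 0.05, as 15.9% of all genes had.

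At 39 weeks Ovgp1 was 109, 2.01, 1.55, 8.05 and 2.77 CPM in Natural and 6663, 0.853, 12.7, 16.3 and 1.17 CPM in IVF, so IVF replicate 1 stood apart from the other 9 ovaries. Esr1 had r = 0.80 (permutation test with 100000 permutations, two-sided, p = 0.0275, adjusted p = 0.209) and rho = 0.54 (permutation, p = 0.115). The r was 0.53 without IVF replicate 1 and Natural replicate 1 (exact permutation, p = 0.18) and 0.23 without IVF replicate 1 alone, so the relation rested on that ovary. Esr2 had r = -0.70 (permutation, p = 0.0233, adjusted p = 0.201) and rho = -0.60 (permutation, p = 0.0735), and r was -0.22 without those 2 ovaries. Unlike for Esr1, leaving out IVF replicate 1 alone left r of Esr2 at -0.68 (exact permutation, p = 0.0437, adjusted p = 0.804). Nr5a1 had r = -0.68 (permutation, p = 0.0539) and -0.34 without them, and Pgr r = 0.45 and -0.45. The gonadotropin receptors had r = -0.52 (Fshr) and -0.49 (Lhcgr), with permutation p values of 0.121 and 0.142. In deviations from each group's mean, r was -0.83 for Fshr (exact permutation within groups, p = 0.00708, adjusted p = 0.205), -0.62 for Lhcgr (exact permutation, p = 0.0297), -0.76 for Esr2 (exact permutation, p = 0.0123) and 0.79 for Esr1 (exact permutation, p = 0.0544). No gene of 17185 passed adjustment at this age, 20.1% had an unadjusted p below 0.05, and 2 receptors, Esr1 and Esr2, were among them. With log2 CPM of Ovgp1 as a covariate, the 12-week log2 fold change of Esr1 was -0.52 (edgeR, adjusted p = 0.783) in place of -1.01, and that of Esr2 was 0.64 in place of 0.80. The groups did not overlap in Ovgp1 at 12 weeks, and the parts of the group and of Ovgp1 in the Esr1 values cannot be told apart.

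**Figure D4:**
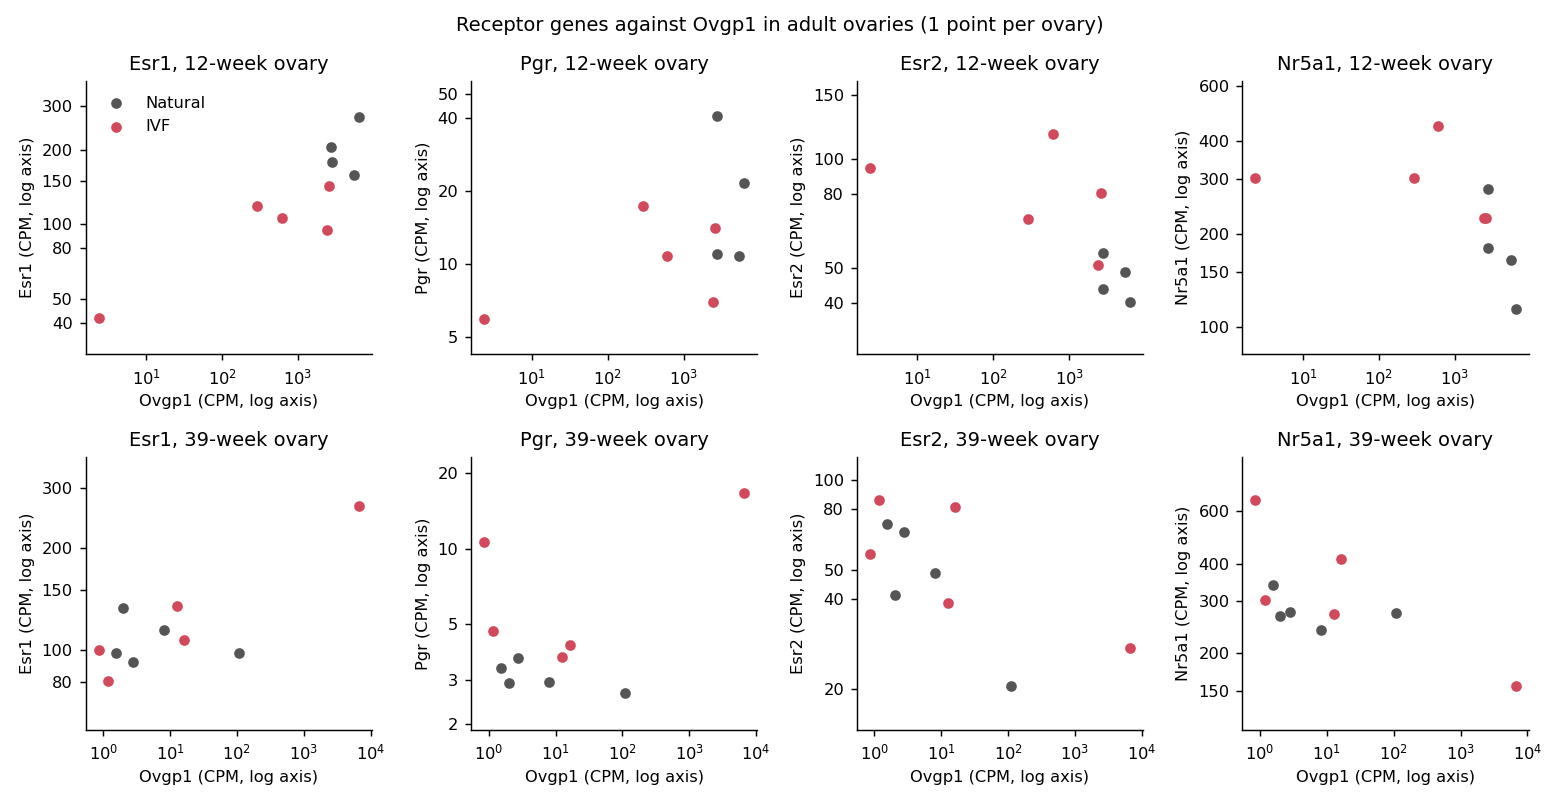
CPM of Esr1, Pgr, Esr2 and Nr5a1 against CPM of Ovgp1 in each adult ovary, both on log axes, by age and group. At 12 weeks Esr1 is higher where Ovgp1 is higher (r = 0.88) while Esr2 and Nr5a1 run the other way (r = -0.63 and -0.54), and at 39 weeks 1 IVF ovary lies far to the right at 6663 CPM of Ovgp1.

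Over the 19 adult ovaries, with each age centred on its own mean and as a description without a test, the receptors fell into groups that varied together. The libraries share their group labels and tissue makeup, so these values are not independent. Fshr and Lhcgr, the chromosome 17 neighbours, had r = 0.81, and Fshr also went with Esr2 (0.789) and Nr5a1 (0.702). Esr1 went with Pgr (0.621) and against Nr5a1 (-0.62) and Esr2 (-0.586). Among 16724 genes, those most like Fshr were Inhba (0.936), Smim10l2a (0.935) and Mboat2 (0.922), and those most like Lhcgr were Elovl6 (0.928), Grem1 (0.886) and Mro (0.876). Esr1 was most like Meis1 (0.943), Klf5 (0.943) and Hoxb4 (0.931), and Esr2 most like Arhgap31 (0.937), Dock4 (0.931) and Arhgap28 (0.925). The nearest to Pgr were Cdh13 (0.903), Gpt2 (0.885) and Msrb2 (0.884). Genes near to Nr5a1 were Art4 (0.912) and 4930474M22Rik (0.911), and the nearest to Nr5a2 were Fut8 (0.885), Jarid2 (0.871) and Fst (0.868). Gper1, which had few reads, had no gene above 0.754, reached by Zc3h13 and Obfc1, with Jade2 at 0.749.

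In cumulus cells, the granulosa-derived cells around the ovulated oocyte, no difference between Natural and IVF was detectable for any receptor at this depth. Fshr had 9.66, 3.44, 11.5, 7.43 and 8.66 CPM in Natural and 4.58, 7.22, 4.82, 5.42 and 6.82 CPM in IVF. The IVF values lay inside the Natural range, and the log2 fold change of -0.46 had a 95% interval from -1.17 to 0.26 (edgeR, adjusted p = 0.898). Lhcgr had 1.45, 1.72, 5.77, 6.65 and 24.1 CPM in Natural and between 3.79 and 5.52 CPM in IVF. Natural replicate 5 stood apart, and its library name shares fields with those of IVF oocytes. The log2 fold change was -0.38 with it and 0.37 without it. Nr5a1 had 97.5, 87.3, 55.1, 46.5 and 52.0 CPM in Natural and between 48.4 and 78.2 CPM in IVF, inside the Natural range, with a log2 fold change of -0.03 and a 95% interval from -0.38 to 0.33. Nr5a2 had a log2 fold change of -0.02 with an interval from -0.46 to 0.43, Esr2 of 0.25 and Esr1 of 0.13. Pgr stayed at or below 1.70 CPM and Gper1 had counts in 1 of 10 libraries, and neither was tested. edgeR called 0 of 6 receptors tested, 0 had an unadjusted p below 0.05 and DESeq2 called 0 and gave no adjusted p for 4, beside 0.00973% of all genes called by edgeR and 6.08% at an unadjusted p below 0.05.

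In E13.5 PGCs the one receptor above the expression filter was Nr5a2, which had 11.1, 12.9, 25.2 and 22.5 CPM in Natural and 10.7, 12.1, 14.3, 19.2 and 15.5 CPM in IVF. The groups overlapped, with a log2 fold change of -0.32 and an SE of 0.32 (edgeR, adjusted p = 1), and no gene of 12763 was called at this age by edgeR or DESeq2, while 2.73% had an unadjusted p below 0.05.

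In oocytes the receptor read most was Esr2. It had counts in 36 of 36 Natural and 40 of 40 IVF single 12-week oocytes, with a lowest, median and highest value of 64.1, 108 and 188 CPM in Natural and 50.1, 139 and 211 CPM in IVF. Counts were summed over 5 Natural and 5 IVF sets, read from the leading fields of the library names, which no label calls donors. The sets fall under 2 prefixes per group, so sets may share an animal or a day and p-values over sets may be too small. The sets had 73.9, 145, 100, 118 and 114 CPM in Natural and 151, 143, 121, 101 and 178 CPM in IVF. The sets overlapped, with a log2 fold change of 0.33 and a 95% interval from -0.08 to 0.74 (edgeR, adjusted p = 0.815). Esr1 had 62.7, 61.3, 41.5, 64.9 and 41.8 CPM in Natural sets and 53.1, 43.7, 25.4, 39.7 and 55.1 CPM in IVF sets, which overlapped, with a log2 fold change of -0.33 (adjusted p = 0.841). Nr5a2 lay between 6.86 and 13.7 CPM in the 10 sets, with a log2 fold change of 0.00 and an interval from -0.47 to 0.46. edgeR called 0 of 5 receptors tested and 0 had an unadjusted p below 0.05, beside 0.0277% and 6.67% of all genes, and DESeq2 called 0. Reads of the gonadotropin receptors were rare, with Fshr counts in 11 and Lhcgr counts in 18 of 76 oocytes.

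The 9 Natural and 10 IVF oocytes of 39-week females have no donor named and were not tested. Esr2 had a lowest, median and highest value of 64.9, 142 and 197 CPM in Natural and 59.8, 140 and 240 CPM in IVF. Esr1 had 0.444, 21.3 and 36.3 CPM in Natural and 0.849, 21.9 and 28.0 CPM in IVF at 39 weeks, beside 30.5, 52.4 and 114 CPM in Natural and 1.67, 45.5 and 81.6 CPM in IVF at 12 weeks, in tables that were scaled separately. The medians of both groups lay lower at 39 weeks for Esr1 and not for Esr2. Table and age cannot be told apart here.

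**Figure D5:**
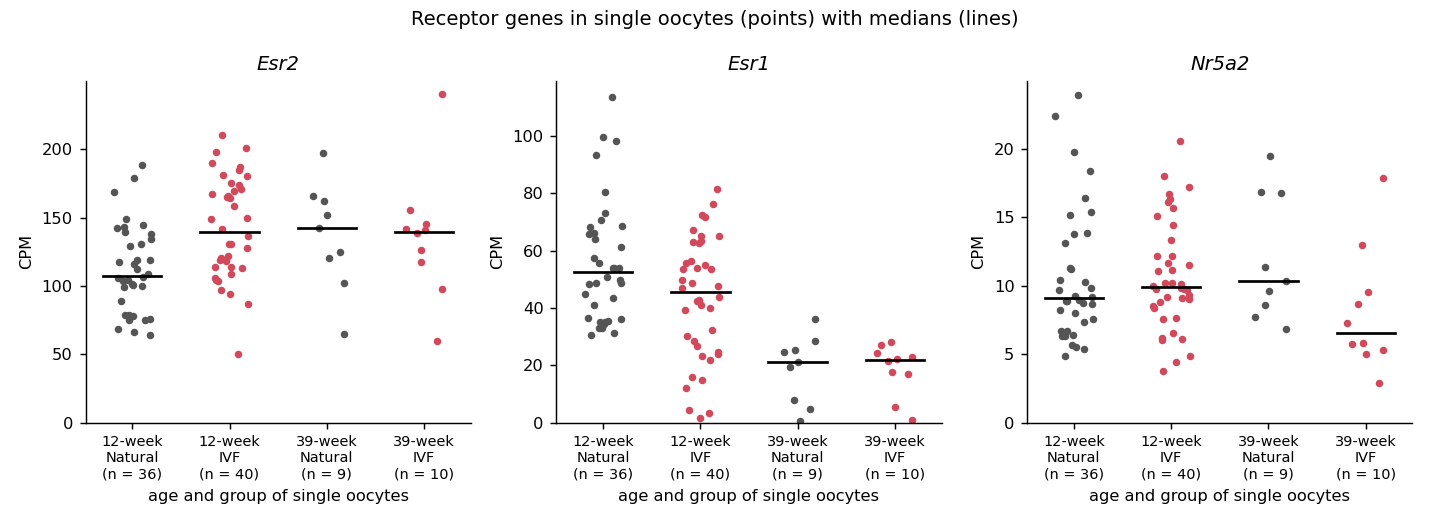
CPM of Esr2, Esr1 and Nr5a2 in single oocytes by age and group, each point an oocyte and each line the median. Esr2 medians lie between 108 and 142 CPM in all 4 groups, and Esr1 medians are 52.4 and 45.5 CPM at 12 weeks and 21.3 and 21.9 CPM at 39 weeks. The age tables were scaled separately.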

How the data were processed

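RNA-seq count tables of 143 libraries in 7 tables were used. Values deposited by the authors are whole-number counts of reads per gene, not normalized. Per the submitters' processing notes and the paper's methods, reads were trimmed, aligned to mm10 with STAR (version 2.3.0e) and counted with featureCounts (version 1.5.0). Ovary libraries were stranded mRNA libraries, and low-input libraries were made by a modified SMART-seq protocol. Groups were compared with the quasi-likelihood test of edgeR (version 4.0.16) in R (version 4.3.3) after its default filter and TMM scaling, with Benjamini-Hochberg adjustment over all genes tested, at 0.05. For cumulus cells the library set was a covariate, and for 12-week oocytes the counts of libraries whose names share their leading fields were added up, since no label names a donor. DESeq2 (version 1.42.0) with the Wald test was the alternative tool. Correlations used log2 CPM (prior count 2). Error terms measure the spread between samples, which in low-input libraries may be partly technical. Pipelines were tested on simulated data.

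The 8 receptors and the gene lists were chosen with earlier results of these data known. Named genes were the receptors, Ovgp1, the 3 genes most correlated with each receptor over adult ovaries, list members called in any comparison (at most 4 per list) and the first 2 genes of marker lists, and some genes that this rule names are not reported here. The library counts limit the precision for genes with few reads. Cumulus cells at 39 weeks were not analysed here. Gene positions came from GENCODE vM21, and figures were drawn with matplotlib (version 3.10.9).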

Additional observations from a re-analysis of the deposited data

Results flagged for a closer look

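A sample was singled out where its gap to the nearest other sample of its group exceeded Dixon's 95% limit for that group size. Of 76 combinations of gene and group examined, 7 met this, 4 of them receptors, where chance gives about 4 (about 1 in 20). Lhcgr in the E18.5 Natural ovary replicate 2 was at 0.181 CPM, from 2 counts, against 0.499 to 0.541 CPM in the others. Fshr in the 12-week IVF ovary replicate 4 was at 46.7 CPM, in the library of 2839022 counts, against 12.4 to 16.7 CPM in the others. Nr5a2 in the 12-week IVF ovary replicate 5 was at 222 CPM, against 323 to 360 CPM. Lhcgr in the cumulus Natural library replicate 5 was at 24.1 CPM, against 1.45 to 6.65 CPM. Ovgp1 accounted for the other 3, at 2.77 CPM in the E18.5 Natural ovary replicate 4 (others 25.6 to 28.7), at 109 CPM in the 39-week Natural ovary replicate 1 (others 1.55 to 8.05) and at 6663 CPM in the 39-week IVF ovary replicate 1 (others 0.853 to 16.3). The causes were not tested.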

How the results depend on the processing

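The number of receptors called moved as follows. At E18.5 it was 1, and 0 both with at least 10 counts required in every library, where Lhcgr was not tested, and with the replicate number as a block, and leaving out each ovary gave 0 to 1. DESeq2 called 2 at 12 weeks (Esr1 and Esr2), 2 at 39 weeks (Pgr and Nr5a2) and 2 in the interaction with age (Esr1 and Pgr), where edgeR called 0. At 39 weeks the block gave 1 (Nr5a2), beside 7 higher and 17 lower over all genes. There the Ovgp1 covariate gave 2 (Fshr and Nr5a2), beside 162 higher and 214 lower over all genes. The other 40 such settings that kept every library gave the same count, and leaving out 1 library gave 0 in every other comparison. Over all genes, DESeq2 called 895 higher and 975 lower at E18.5 (edgeR 439 and 452), 525 and 610 at 39 weeks (edgeR 10 and 35) and 695 and 419 in the interaction (edgeR 2 and 1).

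Same-numbered libraries did not deviate together in every pair of any comparison. Correlations of their deviations from the fit ran from -0.132 to 0.0104 at E18.5 and -0.357 to 0.252 at 12 weeks. They ran from -0.00621 to 0.399 at 39 weeks, -0.147 to 0.262 in cumulus cells and -0.0683 to 0.536 in PGCs, where most pairs were positive. The numbers were taken not to pair the samples, which these mixed values do not settle. With the replicate block the E18.5 calls over all genes went from 891 to 2 higher and 1 lower, those at 39 weeks from 45 to 7 higher and 17 lower, those in cumulus cells from 1 to 11 higher and 13 lower, and Lhcgr at E18.5 kept a log2 fold change of 2.35 (edgeR, adjusted p = 0.202), while Pgr at E18.5 turned to 0.049. No paired analysis was possible for the Ovgp1 correlations because they come from no group test, nor for oocyte sets because the numbers in their names recur within a group or have no partner in the other, so they name no set of single pairs.

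Directions turned only for values that were not called. In cumulus cells, with Natural replicate 5 taken as IVF, Lhcgr was 0.97 and Esr1 -0.00857. Without the library set Esr1 was -0.028. With only the GC library set Esr1 was -0.27, Esr2 -0.12, Nr5a1 0.19 and Nr5a2 0.25. Correlations with Ovgp1 in deviations from the 12-week group means were 0.18 for Fshr, 0.26 for Lhcgr and 0.12 for Nr5a2, and at 39 weeks rho for Pgr was -0.091 and, without 2 ovaries, r was -0.45 for Pgr and 0.21 for Nr5a2.

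Leaving out 1 library turned directions over these ranges of log2 fold change: E18.5 Esr1 -0.35 to 0.022 and Nr5a1 -0.17 to 0.30, 12-week Gper1 -0.014 to 0.27, 39-week Esr1 -0.019 to 0.50, cumulus Lhcgr -0.74 to 0.37, Esr1 -0.25 to 0.69, Nr5a1 -0.14 to 0.063 and Nr5a2 -0.15 to 0.14, oocyte sets Lhcgr -0.58 to 0.57, Nr5a1 -0.49 to 0.028 and Nr5a2 -0.13 to 0.079, and interaction Fshr -0.19 to 0.57 and Lhcgr -1.79 to 0.52. Leaving out 1 ovary, chosen after seeing the data, moved r with Ovgp1 from -0.59 to 0.063 for Lhcgr, -0.034 to 0.43 for Gper1 and -0.25 to 0.12 for Nr5a2 at 12 weeks, and from -0.54 to 0.74 for Pgr and -0.14 to 0.49 for Gper1 at 39 weeks. The causes were not tested. Few counts limit Lhcgr and Fshr at E18.5, Pgr and Gper1 in cumulus cells and all gonadotropin receptor values in germ cells.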
